A study of Saccharomyces cerevisiae with 12 samples.

Results

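RNA of san1 mutant cells and RNA of SAN1 cells, both of budding yeast grown in the medium that the labels call YC, were hybridized together on 6 of the 12 2-channel arrays of the series. These 6 arrays were chosen by their titles and source names, YC1 to YC6. The other 6 arrays compare the same genotypes grown in YEPD, a rich medium of yeast extract, peptone and glucose. The san1 cells lack an active SAN1 gene by their name, and the SAN1 cells carry it. The sources used here give no strain background, mating type, kind of san1 allele or make-up of YC, and do not say whether the arrays came from separate cultures or clones. A p-value here thus speaks of the spread among the 6 arrays, which may be technical in part. San1 RNA lay in channel 2 on arrays 1 to 3 and in channel 1 on arrays 4 to 6, so the dyes were balanced. For YC arrays 1 to 3 the description field says YEPD, whereas titles and source names say YC and were followed.

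San1 is a ubiquitin ligase of the yeast nucleus. It binds exposed hydrophobic stretches of misfolded proteins and marks them with ubiquitin, working with the conjugating enzymes Cdc34 and Ubc1, so that the proteasome degrades them. Other ligases, such as Ubr1 in the cytosol and Doa10 in the membranes of the endoplasmic reticulum and nucleus, do similar work on partly shared substrates. The gene was found through mutants that relieve defects of the silencing protein Sir4. Yeast answers an excess of misfolded protein mainly through the transcription factors Hsf1, which drives chaperone genes, and Msn2 and Msn4, which drive general stress genes, while Rpn4 drives proteasome genes.

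An array held between 5850 and 6180 values in the table's 6204 rows, which stand for 6177 genes, and 6101 genes had at least 2 values in each dye orientation and were tested. All values are log2 ratios of san1 over SAN1, each array centred on its median, so a positive value means a higher level in san1 cells. No label gives the base of the logarithm, for which 2 was taken. The direction was read from the SAN1 row. As each RNA came from many cells, a change in every cell and a change in the share of cells in some state cannot be told apart. The spread of an array was 0.169 to 0.205 (SD over genes). On arrays 1 and 4, 6.15% and 7.42% of values equalled another gene's value, against 0.7% to 2.56% on the other 4 arrays. Correlations between YC arrays over all genes, each array holding both RNAs, ran between 0.05 for arrays 1 and 5 and 0.68 for arrays 2 and 5.

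SAN1 itself stood at -4.57, -4.57, -3.79, -3.53, -3.31 and -2.69 on arrays 1 to 6. It was far lower in san1 cells on every array, with a mean of -3.74 (SE 0.13, adjusted p = 2.02e-05), a 13.4-fold lower level. Because the direction was read from this row, the sign here checks nothing. Among the genes around SAN1, PEX7, which encodes a peroxisomal import receptor, read -0.24, -0.23, -0.18, -0.33, -0.27 and -0.34 and MKC7, which encodes a protease anchored at the cell surface, read -0.18, -0.45, -0.26, -0.40, -0.43 and -0.23. Each was below 0 on 6 of 6 arrays and passed the test, at -0.27 (SE 0.032, adjusted p = 0.00588) for PEX7 and -0.32 (SE 0.047, adjusted p = 0.00903) for MKC7. DOP1 (-0.15, adjusted p = 0.114), MTQ2 (-0.002, adjusted p = 0.977) and TAF12 (0.05, adjusted p = 0.857) did not pass. RPS11A (-0.03, adjusted p = 0.573), which was listed with these genes, is by its locus name no neighbour of SAN1.

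Many transcripts differed between san1 and SAN1 cells in YC, and most by little. In limma's test against 0, 944 of 6101 genes (15.5%) passed an adjusted p of 0.05, of which 525 were higher (8.61% of those tested) and 419 lower (6.87%) in san1 cells. Their median size was 0.19. Of these genes 7 differed by 1.5-fold or more, 6 of them higher, and only SAN1 and HSP12 by 2-fold or more. The sign was the same on every measured array for 831 of the 944. Since arrays n and n plus 3 looked alike in several gene lists, a second fit took their mean as 1 value, although no label ties them together. Then 141 of 6070 genes (2.32%) passed, 107 higher and 34 lower, and 139 of them were among the 944. The count also rests on single arrays: it was 127 without array 3, 211 without array 5, 323 without array 6, 354 without array 4, 486 without array 2 and 850 without array 1, and 666 without arrays 1 and 4. Of 141 genes named by rule that passed, 48 did so whichever array was left out.

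**Figure D1:**
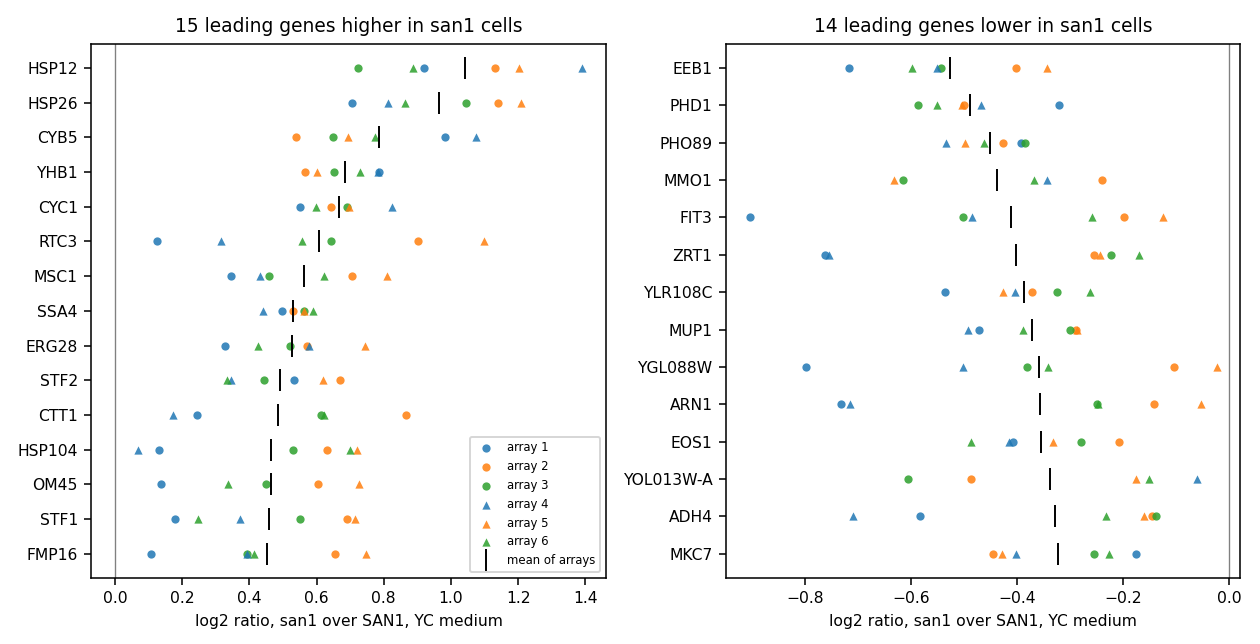
Log2 ratio of san1 over SAN1 (x axis) on each YC array for the 15 higher and 14 lower genes with the largest mean change among called genes that have 1 sign on every measured array and at least 5 values, SAN1 left out. Circles are arrays 1 to 3 and triangles arrays 4 to 6, arrays n and n plus 3 share a colour, and black ticks are means. HSP12 and HSP26 lie between 0.71 and 1.39 on every array, while RTC3 spans 0.13 to 1.10.

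HSP12, HSP26, CYB5, YHB1 and CYC1 stood highest in san1 cells. HSP12, which encodes a small membrane-associated stress protein, read 0.92, 1.13, 0.72, 1.39, 1.20 and 0.89 on arrays 1 to 6. HSP26, a small heat shock protein gene, read 0.71, 1.14, 1.05, 0.81, 1.21 and 0.86. All 12 values lay above 0.7, and the means were 1.04 (SE 0.073, adjusted p = 0.0007) for HSP12, a 2.06-fold rise, and 0.96 (SE 0.071, adjusted p = 0.000871) for HSP26, a 1.95-fold rise. CYB5, which encodes cytochrome b5, an electron donor in sterol and lipid desaturation, read 0.98, 0.54, 0.65, 1.07, 0.70 and 0.77. YHB1, which encodes a flavohemoglobin that removes nitric oxide, read 0.79, 0.57, 0.65, 0.78, 0.60 and 0.73. CYC1, the main cytochrome c gene, read 0.55, 0.64, 0.69, 0.83, 0.70 and 0.60. These 3 heme protein genes were thus above 0.5 on all arrays, with means of 0.79 (SE 0.069, adjusted p = 0.00251), 0.69 (SE 0.042, adjusted p = 0.000499) and 0.67 (SE 0.041, adjusted p = 0.000499). RTC3 read 0.13, 0.90, 0.64, 0.32, 1.10 and 0.56, low on arrays 1 and 4 and high on arrays 2 and 5, with a mean of 0.61 (SE 0.12, adjusted p = 0.0199). The next higher genes were MSC1 (0.56), SSA4 (0.53), ERG28 (0.53), STF2 (0.49), the cytosolic catalase gene CTT1 (0.49, 5 arrays), HSP104 (0.46), OM45 (0.46, 5 arrays), STF1 (0.46) and FMP16 (0.45). Of these, MSC1, SSA4, ERG28 and STF2 passed whichever array was left out. The others missed the threshold without array 3, with adjusted p = 0.0885 for HSP104 and 0.0598 for FMP16.

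Among called genes with 1 sign on every array, EEB1, PHD1 and PHO89 stood lowest after SAN1. EEB1, which encodes an enzyme that makes ethyl esters of fatty acids, read -0.72, -0.40, -0.54, -0.55, -0.34 and -0.60. PHD1 encodes a transcription factor that promotes filamentous growth, and it read -0.32, -0.50, -0.59, -0.47, -0.50 and -0.55. PHO89, a sodium-phosphate cotransporter gene, read -0.39, -0.43, -0.38, -0.53, -0.50 and -0.46. Each was below -0.3 on 6 of 6 arrays, and PHO89 varied least. Their means were -0.53 (SE 0.052, adjusted p = 0.00326), -0.49 (SE 0.042, adjusted p = 0.00227) and -0.45 (SE 0.031, adjusted p = 0.0007). MMO1 (-0.44), FIT3 (-0.41), ZRT1 (-0.40), YLR108C (-0.39), MUP1 (-0.37), YGL088W (-0.36), ARN1 (-0.36), EOS1 (-0.36), YOL013W-A (-0.34) and ADH4 (-0.33) followed. YLR108C, MUP1 and EOS1 passed whichever array was left out. MMO1, FIT3, ZRT1, YGL088W and YOL013W-A lost the call in at least 1 omission. ARN1 and ADH4 lost it at any omission, with adjusted p up to 0.115 and 0.0899.

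Called chaperone genes of the cytosol were mostly higher in san1 cells. Of 38 tested, 17 rose (44.7%, against 8.61% of all genes), 2 fell and 19 did not pass, with a median of 0.14 against -0.002 for all genes. The list's median was alike on every array, at 0.11, 0.11, 0.11, 0.13, 0.12 and 0.15 on arrays 1 to 6. SSA4, the stress-induced Hsp70 gene, read 0.50, 0.53, 0.56, 0.44, 0.56 and 0.59, all within 0.15 of each other, with a mean of 0.53 (SE 0.035, adjusted p = 0.000581). The Hsp90 genes HSC82 and HSP82, named after their values were seen, read 0.49, 0.32, 0.63, 0.58, 0.30 and 0.20 for HSC82 and 0.50, 0.21, 0.12, 0.68, 0.35 and 0.50 for HSP82. Both Hsp90 genes rose, at 0.42 (SE 0.059, adjusted p = 0.00825) and 0.39 (SE 0.061, adjusted p = 0.0114). Their sequences are close, as are those of SSA1 (0.36, SE 0.065) and SSA2 (0.32, SE 0.064), so probes may read both members of a pair. Among 8 co-chaperones of Hsp90, 4 rose, with STI1, which links Hsp70 to Hsp90, at 0.30, 0.21, 0.29, 0.25, 0.38 and 0.48 and the cyclophilin gene CPR6 at 0.30, 0.17, 0.23, 0.49, 0.33 and 0.33. These 2 genes were above 0.16 on all arrays, with means of 0.32 (SE 0.04, adjusted p = 0.0065) and 0.31 (SE 0.038, adjusted p = 0.0065). AHA1 (0.18) and SBA1 (0.28) also rose.

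The remaining chaperone classes held rising, falling and uncalled genes. The disaggregase gene HSP104 and the small heat shock genes HSP26 and HSP42 all rose, at 0.46, 0.96 and 0.39. HSP104 read 0.13, 0.63, 0.53, 0.07, 0.72 and 0.70, near 0.1 on arrays 1 and 4 and above 0.5 on the others. The Hsp40 genes SIS1 (0.28, SE 0.051) and YDJ1 (0.18, SE 0.04) rose, as did the sorting factor genes BTN2 (0.15) and CUR1 (0.15), whose products gather misfolded protein in deposits. None of the 8 genes of the CCT chaperonin, which folds actin and tubulin, passed in limma, 3 having an unadjusted p under 0.05 (median 0.04). Of the ribosome-bound chaperones, SSB1 (-0.18, adjusted p = 0.0271) and SSZ1 (-0.15, adjusted p = 0.0295) fell and SSB2 (0.22, adjusted p = 0.0328) rose, though SSB1 and SSB2 are near copies. All 3 of these calls were lost with most single arrays left out. With 1 array left out, 7 to 18 of the 38 rose, the fewest without array 3, and 7 rose with pairs of arrays averaged. Among chaperones of mitochondria 2 of 9 rose (22.2%, against 8.61% of all genes), HSP78 (0.31) and MGE1 (0.22). Among those of the endoplasmic reticulum 1 of 10 changed, EUG1 (-0.13), which was lower (10%, against 6.87% of all genes). Its call was lost at any omission.

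**Figure D2:**
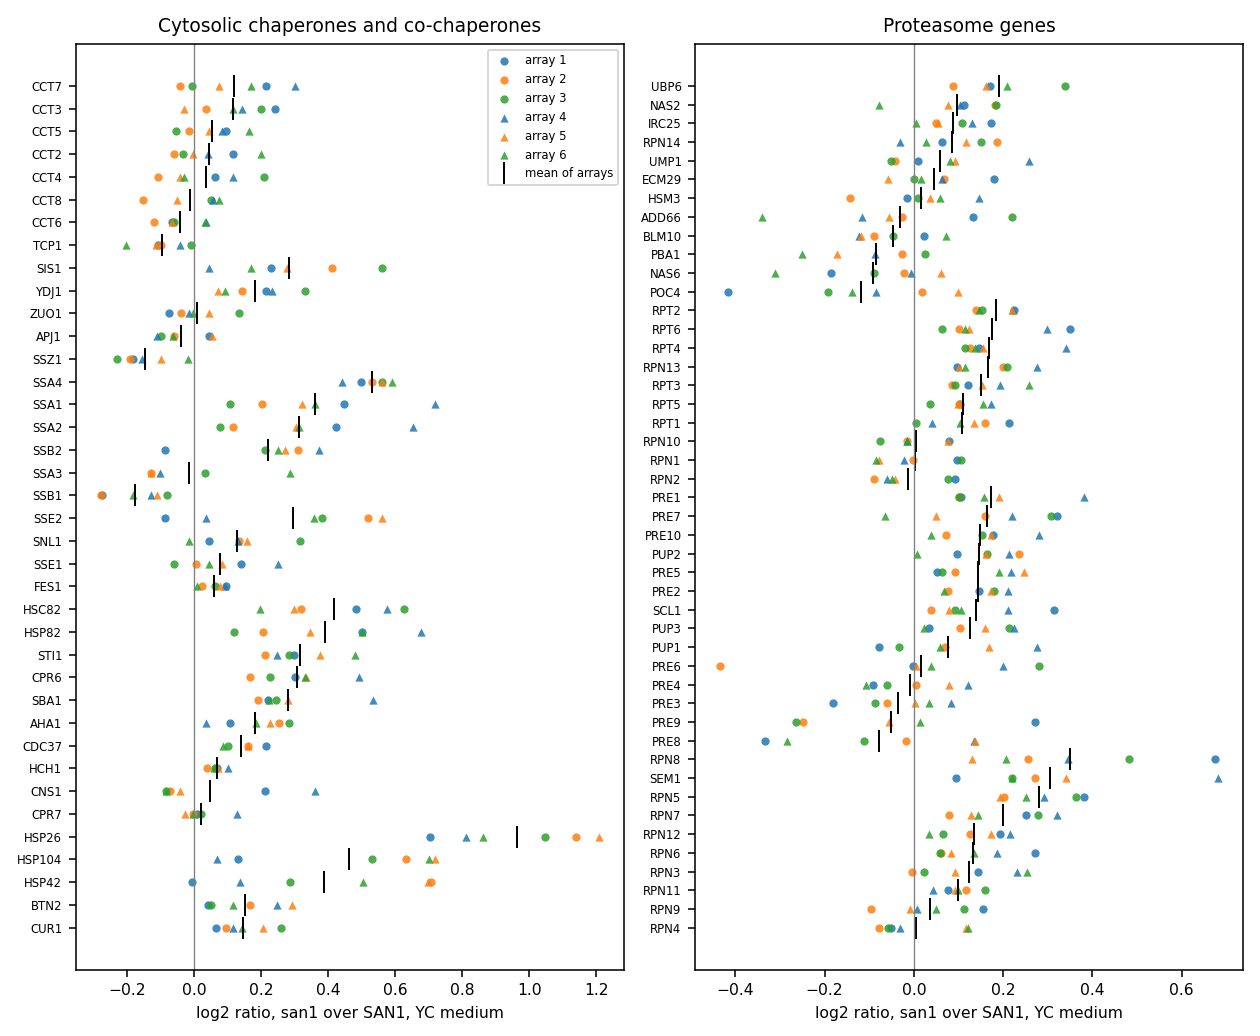
Log2 ratio of san1 over SAN1 (x axis) on each YC array for every tested cytosolic chaperone gene and every tested proteasome gene, ordered by role. Markers are as for the leading genes and black ticks are means. The 2 Hsp90 genes have means of 0.42 and 0.39, the CCT genes lie around 0, and 36 of 46 proteasome genes have a mean above 0.

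Called proteasome genes were all higher in san1 cells, most by little. Of 46 tested, 16 rose (34.8%, against 8.61% of all genes), none fell and 30 did not pass in limma, with a median of 0.10. Its medians on arrays 1 to 6 were 0.11, 0.07, 0.09, 0.19, 0.10 and 0.06. By part, 6 of 14 genes of the core particle, 5 of 10 of the base, 4 of 9 of the lid and 1 of 12 assembly and activator genes rose. RPN5, a lid subunit gene, read 0.38, 0.20, 0.36, 0.29, 0.19 and 0.25 (mean 0.28, SE 0.038, adjusted p = 0.00766). RPN8, another lid gene, read 0.68, 0.26, 0.48, 0.35, 0.13 and 0.21 (mean 0.35, SE 0.057, adjusted p = 0.0132). SEM1, of the lid as well, read 0.09, 0.27, 0.22, 0.68, 0.34 and 0.22 (mean 0.30, SE 0.061, adjusted p = 0.0202). All 18 of these values lay above 0, and these 3 genes had the highest means of the list. RPT2, an ATPase gene of the base, was at 0.18 (SE 0.032, adjusted p = 0.0148). RPN4, which encodes the transcription factor of these genes, was at 0.004 (adjusted p = 0.955). These small changes depended on the arrays used: 1 to 11 genes rose with 1 array left out, the fewest without array 3, 3 without arrays 1 and 4, and 2 with pairs averaged.

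Other genes of ubiquitin-dependent quality control moved little. Of 41 tested, 5 rose (12.2%, against 8.61% of all genes) and none fell. None of the 15 ligase genes passed in limma, 6 having an unadjusted p under 0.05, with means between -0.15 and 0.12. The conjugating enzyme genes UBC4 (0.17, SE 0.036, adjusted p = 0.0219) and UBC1 (0.17, SE 0.037, adjusted p = 0.0253) rose, UBC1 encoding an enzyme that works with San1. CDC48, encoding the ATPase that extracts ubiquitinated proteins, and its cofactor gene UFD1 stood at 0.15 (SE 0.033, adjusted p = 0.0292) and 0.17 (SE 0.038, adjusted p = 0.0271). CDC48 lost its call at any omission, and none of the 41 rose without array 3 or with pairs averaged (limma). Of 17 silencing genes and genes of reported San1 substrates, 1 rose (5.88%, against 8.61% of all genes), the telomere anchor gene ESC1 (0.14, SE 0.037, adjusted p = 0.0417), whose call was lost at any omission, and the 6 substrate genes had a median of -0.003.

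Called general stress genes were all higher in san1 cells, unevenly over the arrays. Of 41 tested, 18 rose (43.9%, against 8.61% of all genes), none fell and 23 did not pass in limma, with a median of 0.23. Array by array, from 1 to 6, the median stood at 0.02, 0.47, 0.31, 0.07, 0.46 and 0.19, near 0 on arrays 1 and 4 and highest on arrays 2 and 5. STF2, a stress protein gene, read 0.53, 0.67, 0.44, 0.35, 0.62 and 0.34. GRX1, a glutaredoxin gene, read 0.34, 0.37, 0.51, 0.34, 0.46 and 0.29. DCS1, which encodes a regulator of mRNA decapping, read 0.36, 0.49, 0.35, 0.23, 0.37 and 0.43. These genes, at 0.49 (SE 0.05, adjusted p = 0.0037), 0.38 (SE 0.04, adjusted p = 0.0037) and 0.37 (SE 0.04, adjusted p = 0.00438), were above 0.2 on each array and did not show the gap seen in RTC3, HSP104 and CTT1. With 1 array left out, 5 to 23 of the 41 rose, 5 without array 3 and 23 without array 1, 27 without arrays 1 and 4, and 6 with pairs averaged. The 116 ribosome biogenesis genes had medians of 0.19, -0.20, -0.04, 0.21, -0.19 and -0.05 on the same arrays, highest on arrays 1 and 4 and lowest on arrays 2 and 5. What sets the arrays apart was not tested. Over all 6 arrays 1 of these genes rose (0.862%) and 8 fell (6.9%, against 6.87% of all genes), and without arrays 1 and 4, 20 fell.

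Genes of the storage carbohydrates were uneven over the same arrays. Of 21 tested, 4 rose (19%, against 8.61% of all genes) and none fell (median 0.15). Without arrays 1 and 4, 12 rose, and 0 passed in limma without array 3 or with pairs averaged. NTH1, the neutral trehalase gene, was at 0.27 (SE 0.053, adjusted p = 0.0191) and UGP1, which makes UDP-glucose, at 0.25 (SE 0.045, adjusted p = 0.0159). GPH1, encoding glycogen phosphorylase, read -0.02, 0.78, 0.49, 0.06, 0.81 and 0.43, and PGM2, encoding phosphoglucomutase, read 0.06, 0.82, 0.47, -0.03, 0.76 and 0.47. Both were near 0 on arrays 1 and 4 and above 0.42 elsewhere, with means of 0.43 (SE 0.12, adjusted p = 0.0476) and 0.42 (SE 0.12, adjusted p = 0.0475). Of 36 antioxidant genes, 9 rose (25%, against 8.61% of all genes) and 1 fell. With 1 array left out, 2 to 9 rose. YHB1, CTT1 and GRX1 had the highest means, followed by the glutathione peroxidase gene GPX2 (0.27, SE 0.049, adjusted p = 0.0162), and the peroxiredoxin gene DOT5 was at 0.19 (SE 0.041, adjusted p = 0.0271).

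**Figure D3:**
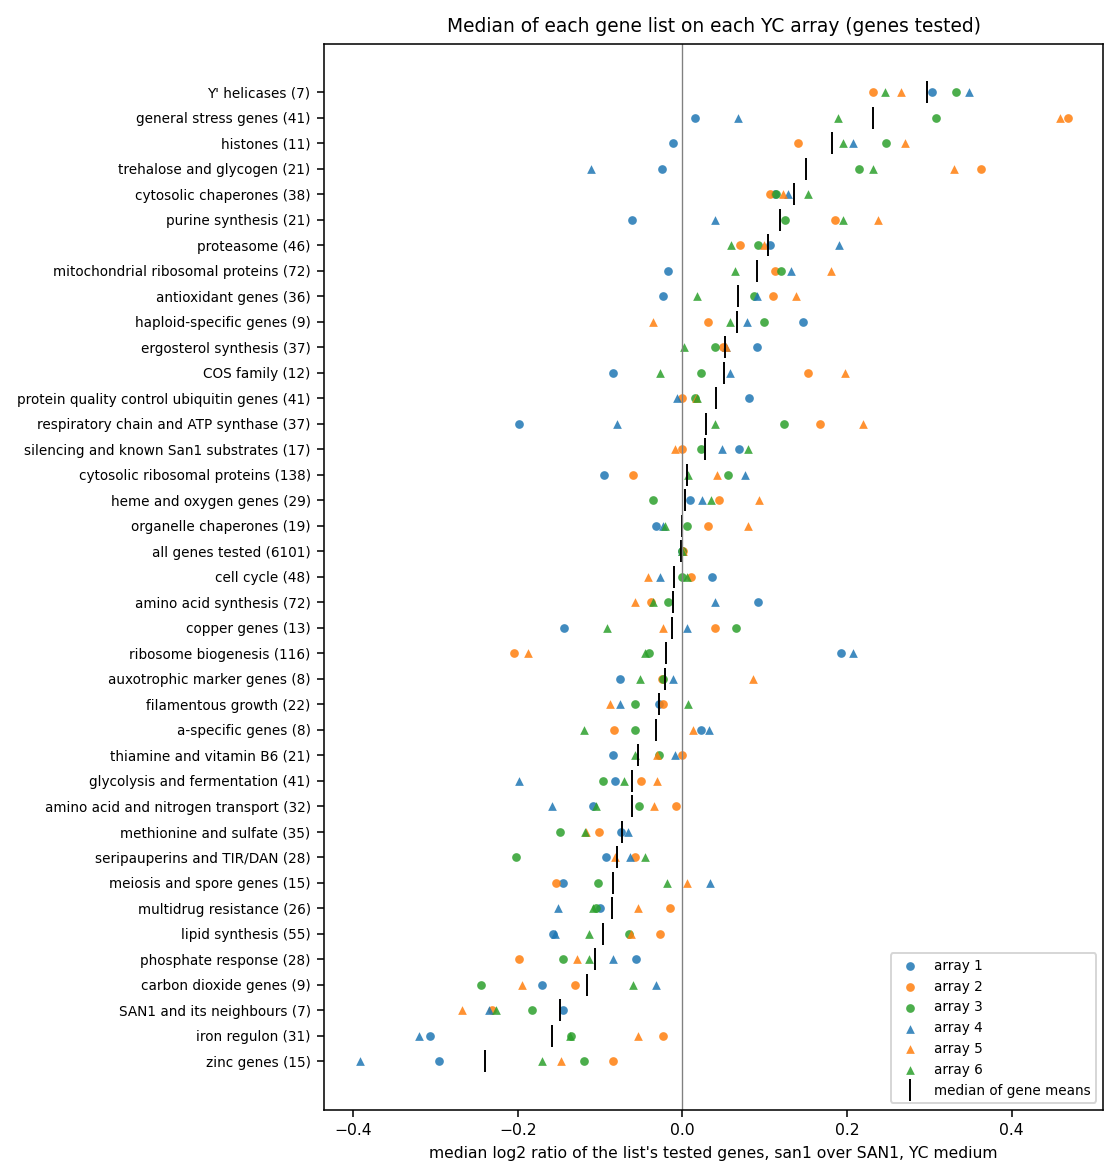
Median log2 ratio of san1 over SAN1 (x axis) of each gene list on each YC array, with the number of genes tested in brackets. Circles are arrays 1 to 3 and triangles arrays 4 to 6, arrays n and n plus 3 share a colour, and black ticks are the median over gene means. Cytosolic chaperone medians lie between 0.11 and 0.15, whereas general stress medians span 0.02 to 0.47 and ribosome biogenesis medians -0.20 to 0.21.

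Of 5 cytochrome genes 3 rose (60%, against 8.61% of all genes), CYB5, CYC1 and CYC7, and 2 did not pass. CYC7, the minor cytochrome c gene, had no value on array 1 and read 0.42, 0.41, 0.29, 0.37 and 0.52 on the others (mean 0.41, SE 0.046, adjusted p = 0.00653). COX5B, the hypoxic form of a cytochrome oxidase subunit, read 0.18, 0.50, 0.57, 0.42, 0.67 and 0.37 (mean 0.45, SE 0.061, adjusted p = 0.00766, named after its value was seen). ANB1, another hypoxic gene, encoding a form of translation factor eIF5A, read -0.22, -0.31, -0.20, -0.32, -0.19 and -0.25 (mean -0.25, SE 0.035, adjusted p = 0.00785, named after its value was seen). COX5B was thus above 0 and ANB1 below 0 on 6 of 6 arrays. Of 7 genes listed as hypoxic 1 rose (14.3%) and 3 fell (42.9%), HYP2 and SUT1 besides ANB1. HYP2 encodes the aerobic counterpart of ANB1, so this count is not one of hypoxic genes alone. The sequences of HYP2 and ANB1 are close, so probes may read both. HYP2 and SUT1 were named after their values were seen, and both lost the call with most single arrays left out. Of 29 heme and oxygen genes in all, 6 rose (20.7%, against 8.61% of all genes) and 4 fell (13.8%, against 6.87%). The 8 heme synthesis genes held 1 change, HEM1 (-0.15, lower), whose call was lost at any omission. The 6 regulator genes held none (limma, 3 with an unadjusted p under 0.05). Of 37 respiratory chain and ATP synthase genes 3 rose (8.11%, against 8.61% of all genes), COX12, COX13 and TIM11, a share no higher than the background, and each of these calls was lost in 5 of 6 omissions. The medians of that list ran from -0.20 on array 1 to 0.22 on array 5, and 11 of its genes rose without arrays 1 and 4.

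Called sterol genes lay in both directions. Of 37 tested, 14 rose (37.8%, against 8.61% of all genes) and 6 fell (16.2%, against 6.87%). In the mevalonate part 5 of 9 rose, among them ERG20, encoding farnesyl diphosphate synthase, which read 0.25, 0.22, 0.14, 0.35, 0.33 and 0.44 (mean 0.29, SE 0.034, adjusted p = 0.00588). ERG28, which encodes a scaffold for sterol enzymes, read 0.33, 0.57, 0.52, 0.58, 0.74 and 0.43 (mean 0.53, SE 0.052, adjusted p = 0.00318). ERG6, encoding a sterol methyltransferase of the late steps, read 0.20, 0.18, 0.26, 0.23, 0.24 and 0.25 (mean 0.23, SE 0.031, adjusted p = 0.00766). All 18 values were above 0.1. HMG1 (0.27), ERG2 (0.24) and ERG27 (0.24) also rose. ERG11 (-0.25, SE 0.041), encoding lanosterol demethylase, and ERG3 (-0.13, SE 0.035) fell, as did 4 of 11 control and handling genes, with ECM22, a transcription factor gene of the pathway, lowest at -0.26 (SE 0.036). CYB5 belongs to this list as well as to the heme list. With pairs averaged, 4 sterol genes rose and 1 fell, and 7 to 13 rose with 1 array left out.

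Called genes of other lipids were lower with 1 exception. Of 55 tested, 1 rose and 12 fell (21.8%, against 6.87% of all genes), and 5 of the 55 had a mean above 0. Besides EEB1, the lower genes included 5 of 15 sphingolipid genes, such as IPT1 (-0.22, SE 0.036, adjusted p = 0.0132), which encodes the last enzyme of complex sphingolipid synthesis, and LCB2 (-0.18, SE 0.03, adjusted p = 0.0138), a subunit gene of the enzyme that starts it. ALE1, encoding a lysophospholipid acyltransferase, read -0.24, -0.19, -0.29, -0.28, -0.25 and -0.19, close to its mean of -0.24 (SE 0.033, adjusted p = 0.00766) on every array. Without array 3, 2 lipid genes fell, as many as with pairs averaged.

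**Figure D4:**
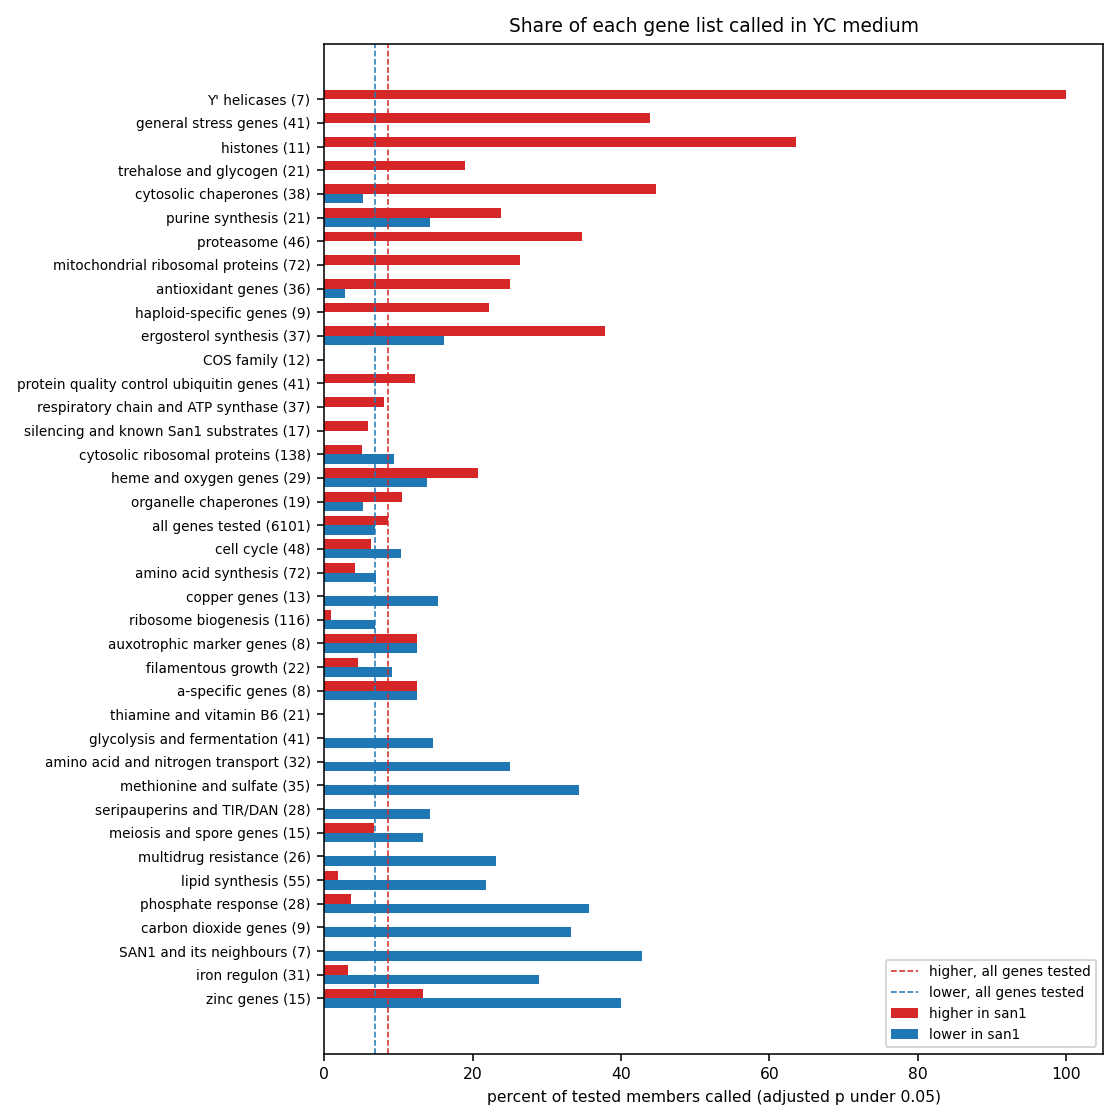
Percent of each list's tested genes that were higher or lower in san1 cells at an adjusted p under 0.05 (x axis), with lists in order of their median and the number tested in brackets. Dashed lines give the shares of all genes, 8.61% higher and 6.87% lower. The cytosolic chaperone list stands at 44.7% higher and the zinc list at 40% lower. Larger shares are higher among Y' helicases (100%) and histones (63.6%), and lower among SAN1 and its neighbours (42.9%).

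Called iron regulon genes were lower in san1 cells with 1 exception, again unevenly over the arrays. Of 31 tested, 9 fell (29%, against 6.87% of all genes) and 1 rose, with a median of -0.16. From array 1 to array 6 it stood at -0.31, -0.02, -0.14, -0.32, -0.05 and -0.14, lowest on arrays 1 and 4. FIT3, a cell wall protein gene that helps to retain siderophores, read -0.90, -0.20, -0.50, -0.49, -0.13 and -0.26 (mean -0.41, SE 0.087, adjusted p = 0.0236). FRE1, a surface reductase gene for iron and copper, read -0.42, -0.19, -0.20, -0.47, -0.14 and -0.24 (mean -0.28, SE 0.053, adjusted p = 0.0177). ISU1, encoding the scaffold for iron-sulfur clusters, was at -0.20 (SE 0.039, adjusted p = 0.0189). None of the 9 lower genes passed whichever array was left out: 0 fell without array 3, up to 7 with another array left out, 4 without arrays 1 and 4, and 0 with pairs averaged. The gene that rose was HMX1, encoding heme oxygenase. Of 13 copper genes 2 fell (15.4%, against 6.87% of all genes), FRE1 and the copper transporter gene CTR1 (-0.20, SE 0.044, adjusted p = 0.0295). The call of CTR1 was lost in 5 of 6 omissions, and 0 copper genes fell in limma without array 3 or with pairs averaged.

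Zinc genes held the lowest median of these lists, -0.24. Of 15 tested, 6 fell (40%, against 6.87% of all genes) and 2 rose. ZRT1, the high-affinity zinc importer gene, read -0.76, -0.25, -0.22, -0.75, -0.24 and -0.17 (mean -0.40, SE 0.095, adjusted p = 0.0312). ATG41, a Zap1-dependent autophagy gene, had no value on array 1 and read -0.24, -0.27, -0.33, -0.27 and -0.40 on the others (mean -0.29, SE 0.04, adjusted p = 0.00974). COT1, a vacuolar transporter gene, was at -0.24 (SE 0.048, adjusted p = 0.0208). ZRT1 was near -0.76 on arrays 1 and 4 and between -0.25 and -0.17 on the others. The list's medians were -0.30, -0.08, -0.12, -0.39, -0.15 and -0.17, and without these arrays 3 genes fell with a median of -0.11. GPP2 (0.20) and TSA1 (0.15) rose. No zinc gene passed with pairs averaged, and 0 to 3 fell with 1 array left out.

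Called phosphate genes were mostly lower. Of 28 tested, 10 fell (35.7%, against 6.87% of all genes) and 1 rose. Of 7 transport genes 4 fell, PHO89 the most. PHO8, the vacuolar alkaline phosphatase gene, read -0.30, -0.29, -0.39, -0.27, -0.20 and -0.20 (mean -0.27, SE 0.033, adjusted p = 0.00588). VTC1, of the polyphosphate polymerase complex, read -0.29, -0.30, -0.27, -0.10, -0.15 and -0.25 (mean -0.23, SE 0.034, adjusted p = 0.0102). PHM8, which encodes a nucleotide phosphatase, read 0.30, 0.47, 0.24, 0.35, 0.52 and 0.29 and was the gene that rose (mean 0.36, SE 0.046, adjusted p = 0.00653). Each of these 3 genes kept its sign on 6 of 6 arrays and passed whichever array was left out. The list's medians were -0.06, -0.20, -0.15, -0.08, -0.13 and -0.11, and 11 of its genes fell without arrays 1 and 4. With pairs averaged, 2 fell and 1 rose.

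Called genes of methionine and sulfate metabolism and of amino acid transport were lower in san1 cells. Of 35 methionine and sulfate genes 12 fell (34.3%, against 6.87% of all genes) and none rose. MUP1, the high-affinity methionine permease gene, read -0.47, -0.29, -0.30, -0.49, -0.29 and -0.39 (mean -0.37, SE 0.042, adjusted p = 0.00532). SAM3, the S-adenosylmethionine permease gene, was at -0.20 (SE 0.036, adjusted p = 0.0167), MET5, a subunit gene of sulfite reductase, at -0.20 (SE 0.038, adjusted p = 0.0176), and CYS3, encoding cystathionine gamma-lyase, at -0.17 (SE 0.032, adjusted p = 0.0175). Of 32 amino acid and nitrogen transport genes, 8 fell (25%) and none rose, 7 of them among 16 amino acid permeases. TAT1, a permease gene for tyrosine and other amino acids, read -0.32, -0.27, -0.18, -0.28, -0.27 and -0.33 (mean -0.27, SE 0.034, adjusted p = 0.0065). OPT1, the glutathione and oligopeptide transporter gene, read -0.29, -0.24, -0.17, -0.27, -0.27 and -0.32 (mean -0.26, SE 0.033, adjusted p = 0.00653). GNP1, a glutamine permease gene, read -0.28, -0.15, -0.15, -0.34, -0.21 and -0.41 (mean -0.26, SE 0.04, adjusted p = 0.0109). All 18 values of these 3 genes lay between -0.41 and -0.15, and BAP3 followed at -0.19 (SE 0.031, adjusted p = 0.0127). Without array 3, 1 methionine gene and 3 transport genes fell, and the same counts were reached with pairs averaged.

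Genes that make amino acids held few changes. Of 72 tested, 3 rose (4.17%) and 5 fell (6.94%), shares near or below those of all genes. HIS7 (0.18, SE 0.031, adjusted p = 0.0141) and SER1 (0.18, SE 0.037, adjusted p = 0.0221) were higher, and LYS9 (-0.17, SE 0.033, adjusted p = 0.0185) and GLT1 (-0.17, SE 0.037, adjusted p = 0.0266) lower. None of 21 thiamine and vitamin B6 genes passed in limma, 4 having an unadjusted p under 0.05, with means between -0.15 and 0.07. Multidrug resistance genes held 6 lower of 26 (23.1%, against 6.87% of all genes) and none higher, and 1 to 5 lower with 1 array left out. PDR5, the main drug efflux pump gene, read -0.12, -0.26, -0.23, -0.34, -0.34 and -0.47 (mean -0.29, SE 0.037, adjusted p = 0.0065). PDR15, its relative, was at -0.18 (SE 0.04, adjusted p = 0.028), and the list's LAC1 (-0.18) and IPT1 are sphingolipid genes.

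Purine and one-carbon genes were split. Of 21 tested, 5 rose (23.8%, against 8.61% of all genes) and 3 fell (14.3%, against 6.87%), and 3 to 7 rose with 1 array left out. ADE1, of the main pathway to adenine nucleotides, read 0.40, 0.49, 0.42, 0.30, 0.52 and 0.47 (mean 0.43, SE 0.039, adjusted p = 0.00274). MTD1, a folate dehydrogenase gene, read 0.18, 0.55, 0.44, 0.29, 0.64 and 0.43 (mean 0.42, SE 0.062, adjusted p = 0.00903). GCV1, of the glycine cleavage system, read 0.36, 0.54, 0.41, 0.14, 0.45 and 0.20 (mean 0.35, SE 0.05, adjusted p = 0.00825). These genes were above 0.1 on 6 of 6 arrays, and 10 genes of the list rose without arrays 1 and 4. GUA1, encoding GMP synthase on the branch to guanine nucleotides, read -0.20, -0.37, -0.22, -0.14, -0.27 and -0.18 and fell (mean -0.23, SE 0.038, adjusted p = 0.0132), as did IMD2 (-0.15) and IMD3 (-0.15) of the same branch.

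Called histone genes were all higher in san1 cells. Of 11 tested, 7 rose (63.6%, against 8.61% of all genes) and none fell. HHF2, a histone H4 gene, read 0.07, 0.25, 0.25, 0.38, 0.41 and 0.43 (mean 0.30, SE 0.037, adjusted p = 0.0065). HHT2, a histone H3 gene, read 0.14, 0.23, 0.37, 0.13, 0.27 and 0.21 (mean 0.23, SE 0.04, adjusted p = 0.0159). HTA2, a histone H2A gene, was at 0.20 (SE 0.034, adjusted p = 0.0141). HHF1 (0.27, SE 0.05, adjusted p = 0.0159) is a near copy of HHF2, and such copies may share signal. HHF1 was at -0.04 on array 1 and above 0.1 elsewhere. Without array 3 or array 5, 1 histone gene passed, and with pairs averaged 2 did. Of 48 cell cycle genes 3 rose (6.25%, against 8.61% of all genes) and 5 fell (10.4%, against 6.87%), near the background, and none passed in limma without array 3. The G1 cyclin gene CLN1 (0.20, SE 0.039, adjusted p = 0.0199) and the S-phase cyclin gene CLB6 (0.19, SE 0.042, adjusted p = 0.0254) were higher, and 4 of 10 daughter-specific genes were lower, with the wall hydrolase genes DSE4 (-0.22, SE 0.032, adjusted p = 0.00932) and SCW11 (-0.20, SE 0.04, adjusted p = 0.0205) among them. Of 22 filamentous growth genes, 2 fell (9.09%), PHD1 and the repressor gene SFL1 (-0.18, SE 0.033, adjusted p = 0.0159), and 1 rose, TEC1 (0.13, SE 0.037, adjusted p = 0.0478), whose call was lost at any omission. The share lower was near that of all genes, 6.87%.

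Mitochondrial ribosomal protein genes held changes in 1 direction and cytosolic ones in both. Of 72 mitochondrial ribosomal protein genes 19 rose (26.4%, against 8.61% of all genes) and none fell, with a median of 0.09. MRPS16 read 0.38, 0.33, 0.32, 0.15, 0.21 and 0.07 (mean 0.24, SE 0.033, adjusted p = 0.00766), higher on arrays 1 to 3 than on arrays 4 to 6. RSM18 read 0.15, 0.07, 0.19, 0.37, 0.27 and 0.20 (mean 0.21, SE 0.036, adjusted p = 0.0144), with the reverse order. MRP21 (0.22) and MRP2 (0.19) rose as well. This list was made by name pattern and also holds MRP8, whose product is not a known part of that ribosome. Without array 3 or array 5, 1 of the 72 rose, as with pairs averaged, and 14 did so without arrays 1 and 4. Of 138 cytosolic ribosomal protein genes 7 rose (5.07%, against 8.61% of all genes) and 13 fell (9.42%, against 6.87%), many of them near-identical copies. RPL24B was at 0.28 (SE 0.045, adjusted p = 0.0121), and the test of a difference between copies was not made. UTP20 (-0.29, SE 0.052, adjusted p = 0.0202), RPA14 (-0.20, SE 0.039, adjusted p = 0.0189), UTP15 (-0.23, SE 0.059, adjusted p = 0.0366) and NOP1 (-0.17, SE 0.039, adjusted p = 0.0283) were the leading lower genes of ribosome biogenesis. Glycolysis and fermentation genes held 6 lower of 41 (14.6%, against 6.87% of all genes) and none higher, with 1 to 4 lower when 1 array was left out, and HXT2, a hexose transporter gene, read -0.35, -0.37, -0.02, -0.41, -0.39 and -0.35 (mean -0.32, SE 0.051, adjusted p = 0.0127).

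Subtelomeric and cell surface families were then examined. All 7 tested Y' helicase genes, which lie at chromosome ends, rose, with means between 0.25 and 0.34. YRF1-6 read 0.36, 0.36, 0.33, 0.40, 0.27 and 0.32 (mean 0.34, SE 0.033, adjusted p = 0.00318). The family is nearly identical in sequence, and 1 signal may have been counted on several probes. Of 12 COS genes, another subtelomeric family, none passed in limma, 1 having an unadjusted p under 0.05. Of 28 seripauperin and TIR/DAN genes 4 fell (14.3%, against 6.87% of all genes), with TIR1, a cell wall mannoprotein gene, at -0.31 (SE 0.043, adjusted p = 0.00788) and TIR4 at -0.18 (SE 0.037, adjusted p = 0.0209). The seripauperin genes are near copies too. PYC1, encoding pyruvate carboxylase, which uses bicarbonate, read -0.25, -0.29, -0.37, -0.29, -0.23 and -0.12 (mean -0.26, SE 0.037, adjusted p = 0.00892). URA2, of pyrimidine synthesis, was at -0.21 (SE 0.035, adjusted p = 0.0132). NCE103, the carbonic anhydrase gene, read -0.17, -0.93, -0.83, 0.05, -0.72 and -0.63 (mean -0.54, SE 0.13, adjusted p = 0.0298), between -0.93 and -0.63 on 4 arrays but at -0.17 and 0.05 on arrays 1 and 4.

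Some called genes changed sign between arrays. HMX1 read 0.72, 0.67, 0.52, 0.29, 0.25 and -0.004, and MST27, without a value on array 1, read 0.79, 1.08, -0.06, -0.05 and -0.31 on the others. Both were higher on each measured array of 1 to 3 than on arrays 4 to 6, that is, between the dye orientations. Their means over both orientations were 0.41 (SE 0.049, adjusted p = 0.00588) and 0.40 (SE 0.062, adjusted p = 0.0141). On arrays 4 to 6 alone MST27 was at -0.14. The dye term passed for 0 genes in limma, and 582 had an unadjusted p under 0.05 for it. NCE103, GPH1 and PGM2 changed sign through array 1 or 4.

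Markers of mating type, meiosis and auxotrophy were read as ratios, since levels are not in the table. Of 8 a-specific genes ASG7 (0.17) rose and BAR1 (-0.15) fell, which is 12.5% each, against 8.61% higher and 6.87% lower of all genes. The others, among them STE2 (-0.01), MFA1 (-0.06) and MFA2 (0.08), did not pass. Of 4 alpha-specific genes SAG1 (-0.24) and STE3 (-0.21) fell (50%), while MF(ALPHA)1 (0.01) and MF(ALPHA)2 (0.02) did not pass. None of these 12 mean ratios exceeded 0.24 in size. HO (0.25) and GPA1 (0.20) of 9 haploid-specific genes rose (22.2%). Of 15 meiosis and spore genes ZIP1 (0.14) rose (6.67%) and IME2 (-0.13) and DIT1 (-0.22, 4 arrays) fell (13.3%). STE3, GPA1, ZIP1 and IME2 lost the call at any omission, and ASG7 and BAR1 lost it in 5 of 6. No gene of these lists passed in limma with pairs averaged. Among auxotrophic marker genes ADE2, without a value on array 4, read -0.09, 0.42, 0.16, 0.42 and 0.43 on the others (mean 0.30, SE 0.072, adjusted p = 0.0384), and CAN1 was at -0.16 (SE 0.033, adjusted p = 0.0241). URA3 (-0.08), LEU2 (-0.10), HIS3 (0.10), TRP1 (-0.01), LYS2 (-0.03) and MET17 (0.05) did not pass.

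The change in YC was then set against that in YEPD, with a test of the difference over all 12 arrays. It passed for 770 of 5890 genes (13.1%), 419 of them higher in YC than in YEPD and 351 lower, but for 3 genes when arrays n and n plus 3 were averaged. Without YEPD array 4 it passed for 173, without YEPD array 6, 1 or 3 for 269, 270 or 396, and without YC array 3 or 4 for 363 or 470. Over all genes, YEPD arrays of 1 dye orientation correlated with each other at 0.54 to 0.86. Between the orientations they correlated at -0.40 to -0.09, whereas every pair of YC arrays was above 0. The YEPD means thus average over arrays that differ by orientation, for a reason that was not tested. HSP12 was at 1.04 (SE 0.073) in YC and -0.27 (SE 0.11) in YEPD, a difference of 1.31 (SE 0.14, adjusted p = 0.0014). HSP26 was at 0.96 (SE 0.071) in YC and 0.31 (SE 0.06) in YEPD (difference 0.66, SE 0.085, adjusted p = 0.00297). SSA4 was at 0.53 (SE 0.035) in YC and 0.13 (SE 0.028) in YEPD (difference 0.40, SE 0.04, adjusted p = 0.000506). RTC3, STF2, MSC1, FMP16, STF1 and PBI2 likewise differed, by 0.47 to 0.62. The 8 lowest differences included the copper genes FRE7, CTR1 and FRE1, besides YPR123C, YCL046W, EEB1, PHO89 and YBL100W-A. Of 13 copper genes, 3 passed as lower in YC than in YEPD, against 351 of 5890 genes in all. FRE7, a metalloreductase gene, was at -0.15 (SE 0.045) in YC and 0.98 (SE 0.039) in YEPD (difference -1.13, SE 0.058, adjusted p = 4.42e-06). CTR1 was at -0.20 (SE 0.044) in YC and 0.56 (SE 0.037) in YEPD (difference -0.76, SE 0.056, adjusted p = 6.12e-05), and FRE1 at -0.28 (SE 0.053) in YC and 0.49 (SE 0.043) in YEPD (difference -0.76, SE 0.061, adjusted p = 6.12e-05). All 3 means lay below 0 in YC, where FRE7 did not pass (adjusted p = 0.0631), and above 0 in YEPD.

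**Figure D5:**
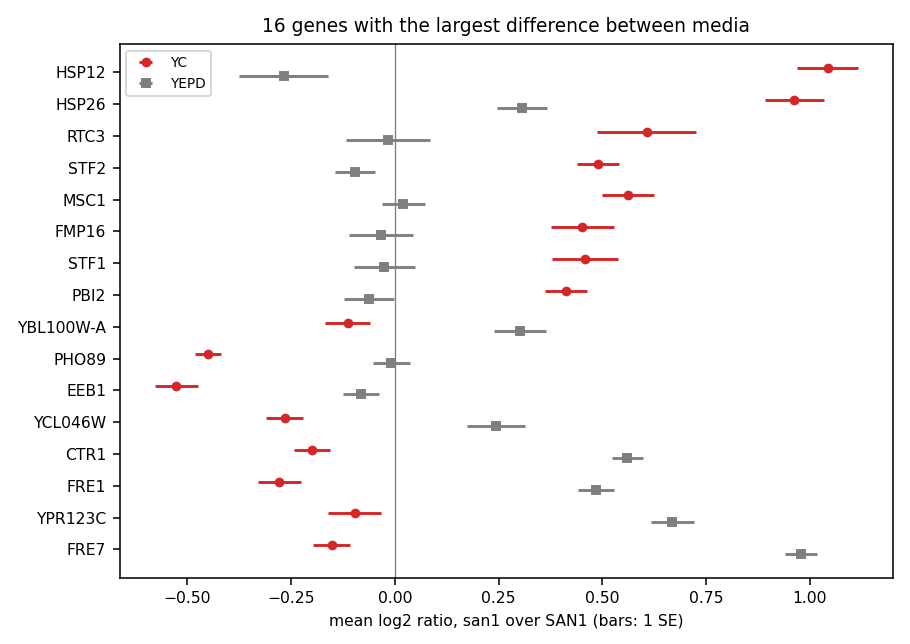
Mean log2 ratio of san1 over SAN1 (x axis, bars 1 SE, up to 6 arrays each) in YC (circles) and YEPD (squares) for the 8 highest and 8 lowest genes by the difference between media. YC means come from the YC arrays alone and YEPD means from the fit of all 12 arrays. HSP12 is at 1.04 in YC and -0.27 in YEPD, and FRE7 at -0.15 in YC and 0.98 in YEPD.

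Other changes were seen in both media. Of 5890 genes tested in both, 918 were called in YC and 144 in YEPD. Of the 918, 70 were also called in YEPD with the same sign, and 3 were called with opposite signs. The 70 make up 7.63% of the YC calls, against 144 of 5890 genes called in YEPD. They make up 48.6% of the YEPD calls, against 15.5% of all genes tested in YC. Both shares lie above those of all genes, but part of this overlap may be built in. The YEPD calls came from the fit of all 12 arrays, with a residual variance per gene common to both media. A gene with little spread on the YC arrays was thus favoured in both sets of calls. How much of the overlap arises in this way was not tested. SAN1 did not differ beyond its error (0.03, SE 0.17, adjusted p = 0.917). CYC1 was at 0.67 (SE 0.041) in YC and 0.46 (SE 0.068) in YEPD (difference 0.21, SE 0.096, adjusted p = 0.155), and ERG28 at 0.53 (SE 0.052) in YC and 0.44 (SE 0.044) in YEPD (difference 0.08, SE 0.062, adjusted p = 0.382). YHB1 was above 0 in both but higher in YC, by 0.27 (SE 0.049, adjusted p = 0.00913). YLR108C (-0.39 in YC, -0.34 (SE 0.038) in YEPD), ALE1 (-0.24 in YC, -0.23 (SE 0.032) in YEPD) and TIR1 (-0.31 in YC, -0.32 (SE 0.038) in YEPD) were lower in san1 cells in both. Proteasome genes had a median of 0.10 in YC and -0.03 in YEPD. By the test of the difference, 16 of the 46 passed as higher in YC, against 419 of 5890 genes in all. Cytosolic chaperone genes had a median of 0.14 in YC and 0.05 in YEPD, and 7 of 38 passed as higher in YC and 1 as lower. With arrays n and n plus 3 averaged, that test passed for only 3 genes in all.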

How the data were processed

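RNA of san1 and SAN1 cells was measured on 6 YC and 6 YEPD arrays with 2 channels each, per the labels. The authors deposited 1 log ratio per spot and array, with array medians near 0. The unit was taken as log2 from the size of the deposited values, which a natural logarithm would fit as well. The sources used here give no scanner, background correction, normalization or filter. Of 6204 rows, 5704 were named by locus tag and 42 by synonym from RefSeq's gene list, and 458 keep their deposited names. Rows of 27 genes were averaged, array medians were set to 0 and arrays 4 to 6 were negated. limma 3.58.1 in R 4.3.3 fitted, per gene, a mean over both dye orientations and a dye term from the 6 YC arrays (4 residual and 3.86 prior degrees of freedom), with two-sided p-values adjusted by Benjamini-Hochberg over 6101 genes and called under 0.05. Genes with under 2 values in an orientation (76) were left out. The difference between media came from all 12 arrays with a dye term in each. SE is the moderated standard error. The number of arrays limits the precision. The fits were tested on simulated data in which the arrays were drawn independently. Such data cannot give the error rate for arrays that resemble each other, as arrays 1 and 4 and arrays 2 and 5 did.

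Members and gene lists were chosen with earlier results of these data known, and lists are described by counts and medians. Names were taken from SAN1 and its neighbours, the 15 highest and 15 lowest called genes measured on at least 5 arrays with 1 sign, up to 4 called members of each list by p, marker genes, the 5 largest called genes of mixed sign and the 8 highest and 8 lowest differences between media. HSC82, HSP82, SSA1, SSA2, HSP42, SSB1, SSB2, SSZ1, SIS1, YDJ1, AHA1, SBA1, BTN2, CUR1, RPN4, HMG1, ERG2, ERG3, ERG11, ERG27, ECM22, HEM1, COX5B, ANB1, HYP2, SUT1, TSA1, IMD2, IMD3 and MRP8 were chosen after their values were seen. Same-numbered arrays of YC and YEPD were not paired, as their deviations correlated between -0.321 and 0.204. Within YC the deviations correlated at 0.382 for arrays 1 and 4, 0.538 for arrays 2 and 5 and -0.225 for arrays 3 and 6. Alternatives were centring, scaling, dye terms, pairs of arrays, filters, the variance model and arrays left out.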

Additional observations from a re-analysis of the deposited data

Results flagged for a closer look

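The effect of san1 differed between YC and YEPD by the test of the difference for 16 genes named by rule, with adjusted p-values from limma between 4.42e-06 and 0.0202. It was higher in YC for HSP12 (1.31), HSP26 (0.66), RTC3 (0.62), STF2 (0.59), MSC1 (0.54), FMP16 (0.49), STF1 (0.48) and PBI2 (0.47). It was lower in YC for FRE7 (-1.13), YPR123C (-0.77), FRE1 (-0.76), CTR1 (-0.76), YCL046W (-0.51), EEB1 (-0.44), PHO89 (-0.44) and YBL100W-A (-0.42).

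Of 181 named genes with at least 4 values, 6 had a value far from those of the other arrays (Dixon's criterion, which chance meets in about 1 group in 20). UBC1 stood at -0.011 on array 2, TIM11 at -0.13 on array 1, HXT2 at -0.015 on array 3, and YRF1-5 at 0.19 on array 2, each nearer to 0 than, or on the other side of 0 from, the other arrays. CLN1 stood at 0.37 on array 6 and CLB6 at 0.41 on array 4, each above the other arrays.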

How the results depend on the processing

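The 944 genes changed in YC became 1462 with all 12 arrays and a common dye term, 141 with arrays n and n plus 3 averaged, 7 on arrays 1 to 3 alone, 11 on arrays 4 to 6 alone and 0 with the sign of arrays 4 to 6 kept (limma, 582 with an unadjusted p under 0.05). With the replicate block of arrays n and n plus 3 as a random effect (correlation 0.279), 412 passed, all among the 944. Leaving out 1 array gave 127 to 850 genes. Centring, scaling, quantile normalization, no dye term, the filters, the variance model and duplicate rows gave 845 to 1020. SAN1 stayed called at -4.31 to -3.17 except with the sign of arrays 4 to 6 kept (-0.57, adjusted p = 0.465), and at -3.87 to -3.66 with 1 array left out. The 770 genes differing between media became 574 with a common dye term, 735 with values on all 12 arrays, 244 with no dye term, 218 with the replicate block of the array number, which by the labels and the data does not pair the samples, and 3 with averaged pairs. Leaving out 1 array gave 173 (without YEPD array 4) to 868. MST27 reversed on arrays 4 to 6 alone (-0.14). Averaging ended the call of 84 of 139 named genes and the random block that of 36 of 140. Causes were not tested. The omission of arrays 1 and 4 together was chosen after seeing the data. Signal over background is not in the table, so dim genes could not be set apart.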
